A study of Mus musculus with 6 samples.

Results

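Proteasome subunit transcripts were compared in mouse CD4 T cells with and without a conditional deletion of Dicer, the RNase that matures microRNAs. The members were the array rows whose platform annotation gives a single gene symbol beginning with Psma to Psmg and a digit, and the rows of a gene were averaged. This gave 50 of the 19935 genes measured, on 56 rows. By the roles of their products, 5 belong to the immunoproteasome (Psmb8, Psmb9, Psmb10, Psme1 and Psme2). A further 31 encode the constitutive core and the lid and base of the 19S cap. Another 12 encode other activators, inhibitors, assembly chaperones and tissue-specific subunits. The remaining 2, Psmc3ip and Psme3ip1, share the symbol pattern but encode partner proteins that are no subunits.

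Total RNA came from CD4+CD62L- T cells, described as resting, that were sorted from lymph nodes and received no treatment. All animals carried Dicer lox/lox. The 3 Dicer WT samples came from CD4Cre negative animals and the 3 Dicer KO samples from CD4Cre positive animals, and the design text calls them biological replicates. The Cd4 promoter drives Cre during thymic development, so deletion precedes the stage that was sorted, and other cells that once expressed Cd4 can carry it too. The sources used here give no strain, age or sex. Nothing there says that each sample was a separate animal, so p-values measure the spread between these samples.

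The proteasome degrades ubiquitin-tagged proteins. Its barrel-shaped 20S core stacks outer rings of alpha subunits on inner rings of beta subunits, some of which hold the catalytic threonines, and the 19S cap recognises, unfolds and feeds in the substrate. Interferons induce Psmb8, Psmb9 and Psmb10, which are built into new cores in place of the catalytic subunits Psmb5, Psmb6 and Psmb7, and the activator PA28, made of Psme1 and Psme2. The resulting immunoproteasome is known for cutting peptides for presentation on MHC class I, and lymphocytes express it even at rest.

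The deposited values were read as log2, although the sources used here do not state the base, and in each row the median of the 6 arrays is 0. A value therefore gives a position relative to the other arrays and no level, and levels of different genes cannot be compared. With 6 arrays, the values on either side of the median lie equally far from 0, so the nearest arrays of genotypes that do not overlap mirror each other. Over all genes, 1741 passed the limma test (adjusted p under 0.05). Of these, 1184 were higher in Dicer KO, or 5.94%, and 557 were lower, or 2.79%. The binary step of the stored numbers gives a coarse level class. Rows of the higher class had a level of 8 or more on all arrays, and a gene was placed there if no fewer of its rows were in the class than outside it. This class held 3289 genes and leaned upward in Dicer KO, where the median difference was 0.11 (other genes, -0.019). In that class 20.6% of genes were called higher and 4.23% lower, and 69.3% had a positive difference, against 45.2% of all genes. All 5 immunoproteasome genes and 24 of the 31 constitutive genes were in it, so their counts are read against both backgrounds. All 8 defining T cell markers examined were in the higher class, as were 1 of 7 NK and CD8 markers (Cd8b1) and 1 of 7 stromal markers (Pecam1). The B cell list had 0 of 9 there and the myeloid list 0 of 12.

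Immunoproteasome transcripts were higher in Dicer KO cells, whereas most constitutive subunit transcripts did not pass the test. Of the 5 immunoproteasome genes, 4 rose and 0 fell, and the median log2 difference (Dicer KO minus Dicer WT, as throughout) was 0.55, or 1.47-fold. Of the 31 constitutive genes, 3 rose (9.68%) and 0 fell, with a median of 0.11, or 1.08-fold. The constitutive share called higher thus lay above the 5.94% of all genes and below the 20.6% of the higher level class, and the constitutive median equalled the class median to 2 decimals. The remaining 14 genes had 0 calls in limma. At an unadjusted p under 0.05, 15 of the 50 genes were higher and 2 lower, with 0 constitutive genes lower. That threshold took 12.1% of all genes as higher and 9.4% as lower (36.4% and 8.82% in the higher level class).

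**Figure D1:**
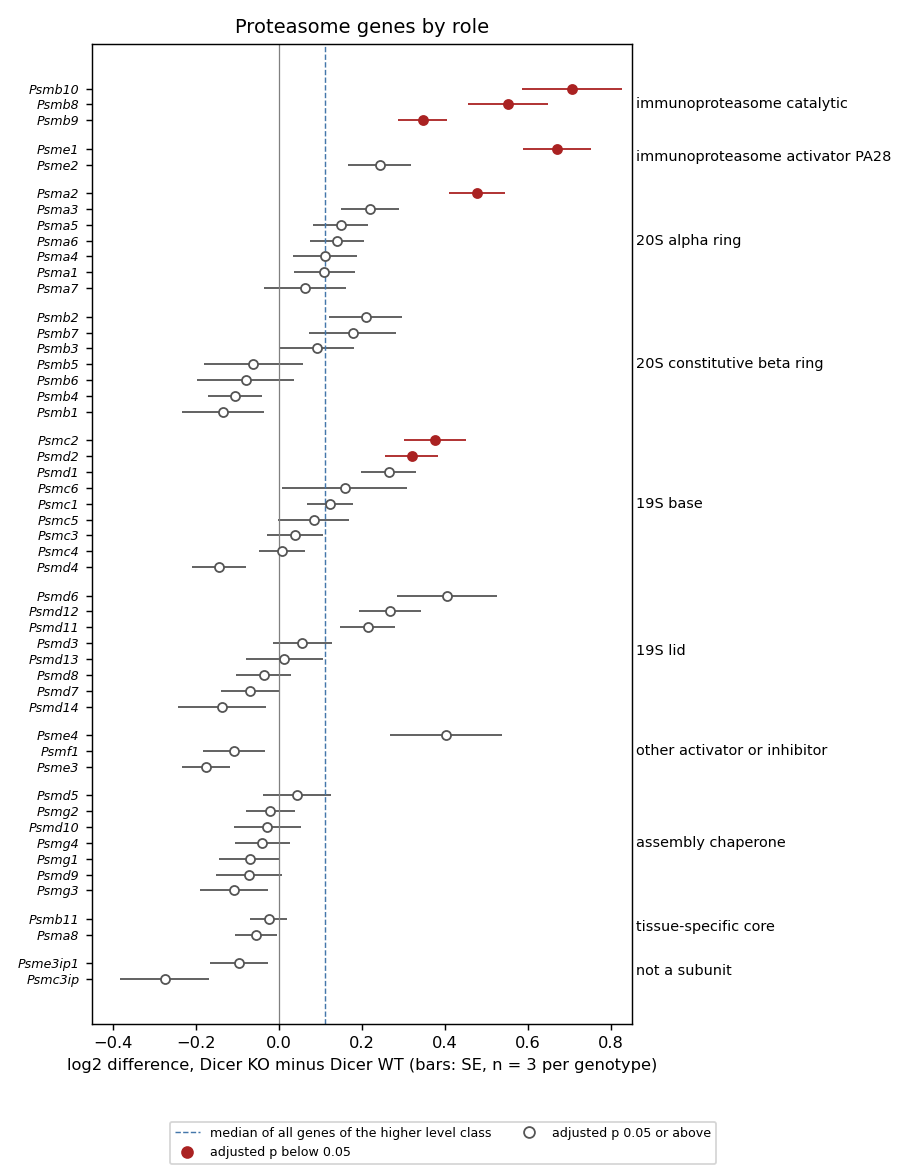
Log2 difference between genotypes, Dicer KO less Dicer WT (x axis) for each of the 50 genes, grouped by role; points are fitted differences, bars are SE with n = 3 per genotype, and filled points passed the limma test. The catalytic immunosubunits and Psme1 lie from 0.35 to 0.71, while the constitutive beta ring lies on both sides of 0, from -0.13 to 0.21.

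RefSeq promoter windows (GRCm38.p6) show what lies upstream of genes that moved together and of a counterpart that did not pass. Windows run from 250 bases before to 50 bases after the annotated start, and 42 of the 50 genes had one that was used. Member windows on a single chromosome were left out, while the windows of all genes, used as background below, kept that chromosome. Shown 5′ to 3′ on the gene's strand are Psmb8 (chr17:34197945-34198244, plus strand), Psmb9 (chr17:34187281-34187580, minus strand), Psme1 (chr14:55578244-55578543, plus strand) and Psmb5 (chr14:54617946-54618245, minus strand). Capitals mark a match to the gamma-activated site in Psmb8, the bases between the divergent starts of Psmb9 and Tap1, a match to the interferon-stimulated response element core in Psme1, and a match to the antioxidant response element core in Psmb5.
Psmb8: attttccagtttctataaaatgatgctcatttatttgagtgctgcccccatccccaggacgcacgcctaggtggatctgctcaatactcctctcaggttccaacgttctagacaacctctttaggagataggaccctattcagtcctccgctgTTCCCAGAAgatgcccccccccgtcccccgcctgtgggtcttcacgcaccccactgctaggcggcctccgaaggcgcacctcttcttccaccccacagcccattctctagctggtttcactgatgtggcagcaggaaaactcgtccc
Psmb9: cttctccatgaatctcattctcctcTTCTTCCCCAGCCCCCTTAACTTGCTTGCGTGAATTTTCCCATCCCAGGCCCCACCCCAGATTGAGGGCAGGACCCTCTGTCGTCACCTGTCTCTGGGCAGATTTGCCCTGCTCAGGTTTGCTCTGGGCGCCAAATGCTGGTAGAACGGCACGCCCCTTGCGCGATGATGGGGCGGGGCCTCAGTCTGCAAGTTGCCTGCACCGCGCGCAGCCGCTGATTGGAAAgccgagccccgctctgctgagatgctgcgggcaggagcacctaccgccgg
Psme1: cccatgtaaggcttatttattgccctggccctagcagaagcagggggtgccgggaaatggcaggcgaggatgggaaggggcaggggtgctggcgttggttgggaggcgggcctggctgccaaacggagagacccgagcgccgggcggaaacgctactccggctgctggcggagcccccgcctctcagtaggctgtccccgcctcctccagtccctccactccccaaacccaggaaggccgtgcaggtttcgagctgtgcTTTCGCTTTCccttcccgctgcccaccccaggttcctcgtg
Psmb5: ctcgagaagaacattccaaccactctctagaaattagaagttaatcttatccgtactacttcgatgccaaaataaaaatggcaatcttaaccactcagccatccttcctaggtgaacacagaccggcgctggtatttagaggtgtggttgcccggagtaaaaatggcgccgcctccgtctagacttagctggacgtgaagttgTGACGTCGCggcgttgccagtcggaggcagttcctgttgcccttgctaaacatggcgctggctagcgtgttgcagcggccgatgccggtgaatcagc

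These motifs were searched on both strands. The interferon-stimulated response element core, 2 GAAA blocks with any 2 bases between them, was in 3.44% of the 32851 windows of the table and in those of 5 members, namely Psme1 (on the opposite strand, with its first base 9 bases after the start), Psmb3, Psmd4, Psmd9 and Psmg4. The gamma-activated site, TTCNNNGAA, which reads the same on both strands, was in 8.3% of windows and in those of Psmb8, 97 bases before the start, Psmd2 and Psmg1. The antioxidant response element core, TGACNNNGC, was in 12.4% of windows and in those of 6 members, among them Psmb5 and Psmb6 but 0 of the 5 immunoproteasome genes. Psmb9, Psmb10 and Psme2 matched none of the 3 patterns in these windows. Matches were thus found in genes that passed the test and in genes that did not. A member counted if any of its windows matched, and the 42 members had 46 windows. Their shares with a match were 11.9%, 7.14% and 14.3% for the 3 patterns in the order above, while the shares of the table are per window. The starts of Psmb9 and Tap1 lie 225 bases apart on opposite strands, and their windows share 275 bases.

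Psmb8 encodes beta5i, the immunosubunit with chymotrypsin-like activity. Its values on arrays 1 to 3 of each genotype, in that order here and below, were -0.35, -0.49 and -0.14 in Dicer WT and 0.21, 0.14 and 0.33 in Dicer KO. Every Dicer KO array lay above every Dicer WT array, and Psmb8 was 1.47-fold higher in Dicer KO (log2 0.55 ± 0.10 SE, n = 3 per genotype, limma adjusted p = 0.0159). Psmb10 encodes beta2i and had the largest difference among the 50 genes. It read -0.48, -0.62 and -0.19 on the Dicer WT arrays and 0.19, 0.21 and 0.44 on the Dicer KO arrays. The genotypes did not overlap, and Psmb10 was 1.63-fold higher (0.71 ± 0.12, limma adjusted p = 0.0147). Psmb9 encodes beta1i, which lacks the caspase-like activity of the subunit it replaces. Its values were -0.20, -0.19 and -0.10 in Dicer WT and 0.19, 0.10 and 0.25 in Dicer KO. The arrays again did not overlap, with a smaller rise of 1.27-fold (0.35 ± 0.06, limma adjusted p = 0.0144).

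The rise of these catalytic genes did not pass the test in every set of arrays. Without Dicer WT 1, all 3 missed the threshold (adjusted p 0.064 to 0.0664), as did Psmb9 without Dicer WT 2 (0.0558) and Psmb10 without Dicer KO 2 (0.0551). When arrays were centred within level classes, which takes out the upward lean of the higher class, the differences were 0.46 for Psmb8, 0.61 for Psmb10 and 0.25 for Psmb9, and only Psmb9 lost its call (adjusted p = 0.0701).

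PA28 is a ring of alpha and beta chains that opens the core without ubiquitin or ATP. Psme1, the alpha chain, read -0.25, -0.36 and -0.27 in Dicer WT and 0.33, 0.25 and 0.54 in Dicer KO. The genotypes were far apart relative to the spread within each, and Psme1 rose 1.59-fold (0.67 ± 0.08, limma adjusted p = 0.00443). Its call was kept without any 1 of the arrays (adjusted p 0.00734 to 0.0228). Psme2, the beta chain, read -0.07, -0.25 and -0.03 in Dicer WT and 0.14, 0.03 and 0.21 in Dicer KO. The arrays did not overlap, which 13.5% of all genes and 37.4% of the higher level class show in this direction, but the difference of 0.24 ± 0.08 did not pass (limma adjusted p = 0.108). A second row, shared by Psme2 and its intronless copy Psme2b and left out for having several symbols, had a difference of 0.09 with overlapping arrays.

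**Figure D2:**
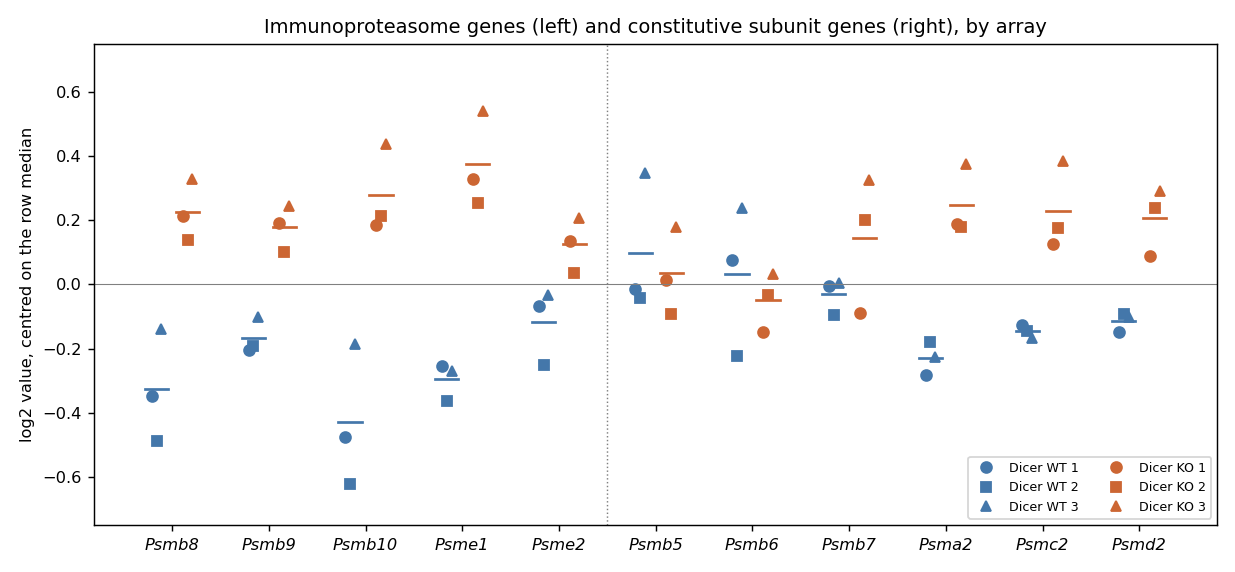
Row-centred log2 value (y axis) of the 5 immunoproteasome genes, the 3 constitutive catalytic subunit genes and the 3 other genes past the threshold on each of the 6 arrays; colours give genotype, marker shapes give the replicate number and short lines give genotype means. All Dicer KO points lie above all Dicer WT points for the immunoproteasome genes, while Psmb5, Psmb6 and Psmb7 overlap.

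Across the arrays, the 5 immunoproteasome genes kept a similar order. All 5 were highest on Dicer KO 3, and 4 were lowest on Dicer WT 2, the exception being Psmb9, lowest on Dicer WT 1. Their median was -0.25, -0.36 and -0.14 in Dicer WT and 0.19, 0.14 and 0.33 in Dicer KO. The constitutive medians were -0.015, -0.070 and -0.015 on the Dicer WT arrays and -0.0050, 0.062 and 0.15 on the Dicer KO arrays. Dicer KO 3 was also the highest array for 19 of the 31 constitutive genes. The immunoproteasome median lay below the constitutive median on each Dicer WT array and above it on each Dicer KO array. The gap between the median differences of the classes was 0.44, with 0.38 to 0.50 when 1 array was left out.

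**Figure D3:**
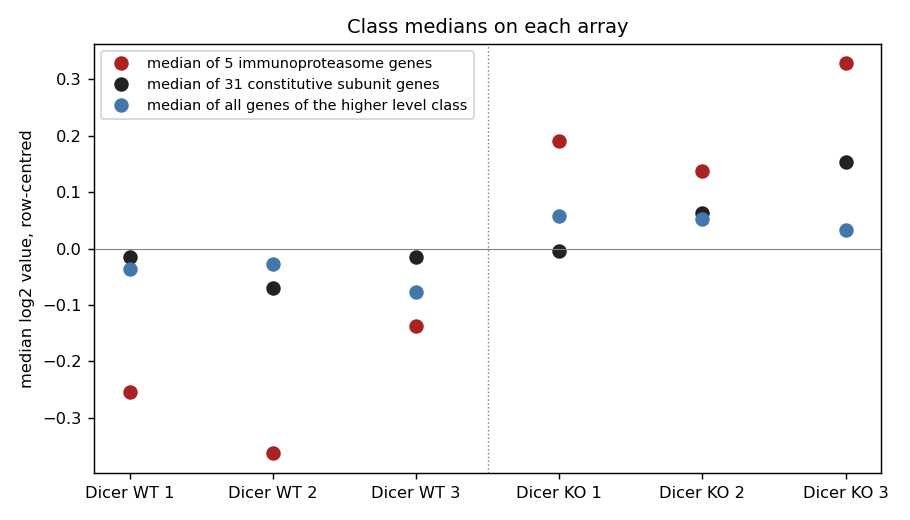
Median row-centred log2 value (y axis) on each of the 6 arrays (x axis) for the 5 immunoproteasome genes, the 31 constitutive genes and all genes of the higher level class. The immunoproteasome median runs from -0.36 on Dicer WT 2 to 0.33 on Dicer KO 3, and the constitutive median stays between -0.070 and 0.15.

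The constitutive catalytic genes give the direct counterpart. Psmb5, the subunit with chymotrypsin-like activity, read -0.015, -0.04 and 0.35 in Dicer WT and 0.015, -0.09 and 0.18 in Dicer KO (difference -0.06 ± 0.12, limma adjusted p = 0.851). Psmb6, the caspase-like subunit, read 0.08, -0.22 and 0.24 in Dicer WT and -0.15, -0.03 and 0.03 in Dicer KO (-0.08 ± 0.12, adjusted p = 0.791). Psmb7, the trypsin-like subunit, read -0.0040, -0.09 and 0.0040 in Dicer WT and -0.09, 0.20 and 0.33 in Dicer KO (0.18 ± 0.10, adjusted p = 0.408). The genotypes overlapped for all 3 genes, and their spread within a genotype was as large as the differences, so changes of this size were not resolved with 3 arrays each.

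Each immunosubunit was then set against the subunit it replaces on the same array, which removes shifts common to both. Psmb8 minus Psmb5 was -0.33, -0.44 and -0.49 on the Dicer WT arrays and 0.20, 0.23 and 0.15 on the Dicer KO arrays. The difference between genotypes was 0.61, a 1.53-fold shift of the ratio toward Psmb8. Psmb8 is in the higher level class and Psmb5 is not, so the upward lean of that class is not common to this pair. After centring within level classes the difference was 0.51. Psmb10 minus Psmb7 was -0.47, -0.53 and -0.19 in Dicer WT and 0.27, 0.01 and 0.11 in Dicer KO, a difference of 0.53. Psmb9 minus Psmb6 was -0.28, 0.03 and -0.34 in Dicer WT and 0.34, 0.13 and 0.21 in Dicer KO, a difference of 0.43. In all 3 pairs every Dicer KO array lay above every Dicer WT array. A two-sided exact permutation test gave p = 0.1 for each, the smallest value that 3 against 3 arrays allow, so this design cannot pass 0.05, and adjustment over the 3 pairs leaves 0.1. The Psmb9 pair was the least separated, with Dicer WT 2 at 0.03 next to Dicer KO 2 at 0.13.

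**Figure D4:**
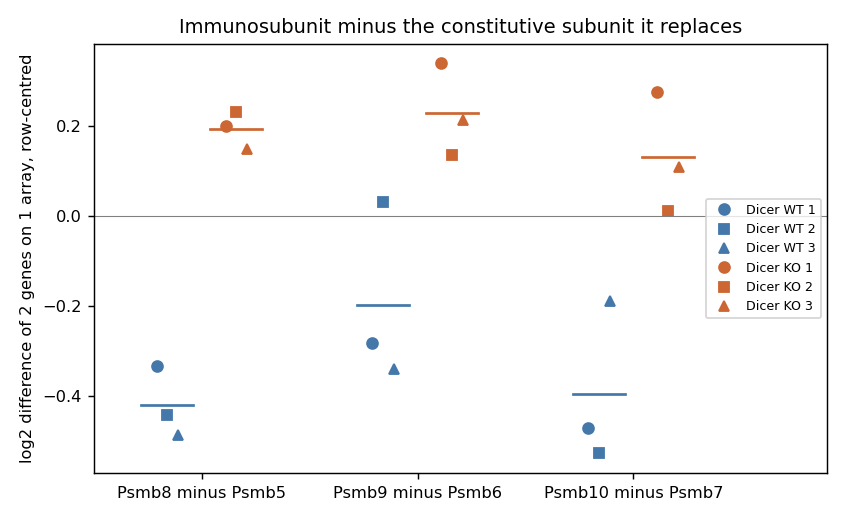
Difference of 2 row-centred log2 values on 1 array (y axis) for each immunosubunit and the constitutive subunit it replaces; colours give genotype, marker shapes the replicate number and short lines the genotype means. In each pair the 3 Dicer KO arrays lie above the 3 Dicer WT arrays, with genotype means of -0.42 and 0.19 for Psmb8 minus Psmb5.

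The alpha ring gates the entrance of the core, and all 7 of its genes had a positive difference, from 0.06 to 0.48, with 1 past the threshold. That gene was Psma2, which read -0.28, -0.18 and -0.23 in Dicer WT and 0.19, 0.18 and 0.38 in Dicer KO. Its arrays did not overlap, it was 1.39-fold higher (0.48 ± 0.07, limma adjusted p = 0.00753), and it was called without any 1 array (adjusted p 0.0141 to 0.0386) and after centring within level classes (0.38, adjusted p = 0.0236). The size of this rise lay between those of Psmb9 and Psmb8, and the differences between these genes were not tested. The other 6 alpha genes had differences of 0.06 to 0.22 and did not pass. Psma3 was on 3 rows, which gave 0.24, 0.22 and 0.20. Arrays did not overlap for Psma2, Psma3 and Psma6, as for 13.5% of all genes and 37.4% of the higher level class in this direction. That class held 6 of the 7 alpha genes, and 69.3% of its genes had a positive difference (all genes, 45.2%). The alpha share called, 14.3%, lay between the 5.94% of all genes and the 20.6% of that class.

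In the constitutive beta ring, 0 of 7 genes passed and 0 had arrays that did not overlap, with a median of -0.06. The lowest p was that of Psmb2, a structural subunit, which read -0.06, 0.0041 and -0.01 in Dicer WT and -0.0041, 0.23 and 0.34 in Dicer KO (0.21 ± 0.09, limma adjusted p = 0.227). Psmb1 and Psmb4 had negative differences of -0.13 and -0.11, and Psmb3, on 2 rows that gave 0.10 and 0.09, had 0.09.

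The base of the 19S cap holds the ring of ATPases that unfolds substrates and the scaffold proteins that bind ubiquitin carriers. Of its 9 genes, all in the higher level class, 2 rose and 0 fell, with a median of 0.12. The share called, 22.2%, was close to the 20.6% of that class, and its median was 0.11. Psmc2, an ATPase, read -0.13, -0.14 and -0.17 in Dicer WT and 0.13, 0.18 and 0.39 in Dicer KO. It was 1.30-fold higher (0.38 ± 0.07, limma adjusted p = 0.0239). Psmd2, the scaffold that docks ubiquitin receptors, read -0.15, -0.09 and -0.10 in Dicer WT and 0.09, 0.24 and 0.29 in Dicer KO, 1.25-fold higher (0.32 ± 0.06, limma adjusted p = 0.0253). The arrays of both genes did not overlap, but both calls depended on single arrays. Psmc2 passed in 2 of the 6 fits that left out an array and Psmd2 in 1 of 6, and both lost their calls after centring within level classes (adjusted p 0.0834 and 0.108). The rows of Psmd2, which number 2, gave 0.35 and 0.29, and the second did not pass by itself (adjusted p over all rows 0.0688). The other scaffold, Psmd1, had 0.26 ± 0.07 and did not pass (adjusted p = 0.0534). The ubiquitin receptor Psmd4 was the only base gene with a negative difference, -0.14 ± 0.07 (adjusted p = 0.265).

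The lid carries the deubiquitinase Psmd14 and its scaffold. Of its 8 genes, 0 passed, 5 had a positive difference, and the median was 0.03. Psmd12 had the lowest p and read -0.27, -0.05 and -0.31 in Dicer WT and 0.05, 0.08 and 0.05 in Dicer KO (0.27 ± 0.08, limma adjusted p = 0.0775). Psmd6, Psmd11 and Psmd12 had arrays that did not overlap, with Psmd6 at 0.41 ± 0.12 (adjusted p = 0.091). Psmd14 read 0.21, 0.25 and -0.12 in Dicer WT and -0.08, -0.08 and 0.08 in Dicer KO (-0.14 ± 0.11, adjusted p = 0.548). Its values depend on the third arrays: without Dicer WT 3 and Dicer KO 3 together it was called lower, at -0.31 ± 0.06 (adjusted p = 0.0359). Psmd6 and Psmd14 were chosen after their values were seen. Over the constitutive genes as a whole, 10 of 31 had every Dicer KO array above every Dicer WT array and 0 the reverse, against 13.5% and 12.7% of all genes and 37.4% and 10% of the higher level class.

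Other regulators went in different directions, with 0 of them past the threshold. Psme3, the nuclear PA28 gamma activator, read 0.03, 0.14 and 0.13 in Dicer WT and -0.14, -0.03 and -0.04 in Dicer KO (-0.17 ± 0.06, limma adjusted p = 0.126). It was the only one of the 50 genes with all Dicer KO arrays below all Dicer WT arrays, and it was called lower after centring within level classes (-0.27 ± 0.06, adjusted p = 0.046). Psme4, the PA200 activator, had the opposite arrangement, with -0.07, -0.10 and -0.54 in Dicer WT and 0.31, 0.11 and 0.07 in Dicer KO (0.40 ± 0.13, adjusted p = 0.129). Both were chosen after their values were seen. The inhibitor Psmf1 was at -0.11 ± 0.08 (adjusted p = 0.50). The 7 assembly chaperone genes, which guide the building of the core and the base and then leave, ranged from -0.11 to 0.04, and 6 of them had a negative difference. All 7 were outside the higher level class, and 9908 of the 16646 genes outside it had a negative difference. Psmb11, the catalytic subunit of cortical thymic epithelium, was at -0.02 ± 0.04 and Psma8, the alpha subunit of male germ cells, at -0.06 ± 0.05 (adjusted p 0.833 and 0.622), and neither was in the higher level class. Psmc3ip, a cofactor of meiotic recombination, was at -0.28 ± 0.11 and Psme3ip1 at -0.10 ± 0.07 (adjusted p 0.188 and 0.513).

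Tap1, which with Tap2 carries the peptides cut by the proteasome into the endoplasmic reticulum, rose with its neighbour. It read -0.43, -0.44 and -0.33 in Dicer WT and 0.60, 0.34 and 0.33 in Dicer KO (0.82 ± 0.08, limma adjusted p = 0.00243), beside 0.35 ± 0.06 for Psmb9. Genes of antigen processing after the proteasome rose as well, with 11 of 16 measured members higher (68.8%), 0 lower and a median of 0.57. The 11 include the transcriptional regulator Nlrc5 (0.53 ± 0.11), which does not act on peptides itself. The higher level class, which held 12 of the 16, had 20.6% called higher and a median of 0.11, and all genes 5.94%. Among them, the oxidoreductase Pdia3 of the peptide loading complex rose by 0.84 ± 0.05, Tap2 by 0.63 ± 0.06, the peptide editor Tapbpl by 1.02 ± 0.10 and the MHC class I light chain B2m by 0.61 ± 0.07. The arrays of Tap1 and these 4 genes did not overlap, as for 13.5% of all genes and 37.4% of the higher level class.

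Of 13 measured genes of interferon signalling, through which immunosubunits are induced, 7 rose (53.8%) and 0 fell, with a median of 0.40. The higher level class held 10 of the 13, and its share called higher was 20.6% (all genes, 5.94%). They included the receptor chains Ifnar1 (0.90 ± 0.07) and Ifngr2 (0.44 ± 0.08), the kinase Jak1 (0.68 ± 0.08) and the transcription factors Irf1 (0.77 ± 0.07) and Irf2 (0.49 ± 0.09). Irf1, a known activator of the immunosubunit genes, read -0.40, -0.44 and -0.31 in Dicer WT and 0.53, 0.32 and 0.31 in Dicer KO. Its highest array was Dicer KO 1, while that of the immunoproteasome genes was Dicer KO 3. The members called numbered 4 without Dicer WT 1. Irf2 lost its call without Dicer WT 1 (adjusted p = 0.0639) and after centring within level classes (0.0515), and Ifngr2 without any of Dicer KO 2, Dicer WT 1 and Dicer WT 2 (0.0545 to 0.064).

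Of 21 measured partners and transcriptional regulators of the proteasome, 3 rose and 0 fell, with a median of 0.16. The share of 14.3% lay between the 5.94% of all genes and the 20.6% of the higher level class, which held 13 of the 21. Nfe2l2 encodes the stress-response factor Nrf2, which can activate constitutive subunit genes, and read -0.64, -0.41 and -0.38 in Dicer WT and 0.44, 0.46 and 0.38 in Dicer KO (0.90 ± 0.08, limma adjusted p = 0.00134). The other 2 are shuttle factors that bring ubiquitinated proteins to the cap, Rad23b (0.54 ± 0.07) and Ubqln2 (0.44 ± 0.06). In the ubiquitin list 7 of 13 genes were measured, and 2 rose and 0 fell, a share of 28.6% against 20.6% in the higher level class, which held 3 of the 7, and 5.94% of all genes. Both belong to the pathway of the ubiquitin-like Isg15, namely its protease Usp18 (1.60 ± 0.35, adjusted p = 0.036) and its activating enzyme Uba7 (0.44 ± 0.10, adjusted p = 0.0452). Their calls rested on nearly all arrays. Usp18 kept its call only when the array left out was Dicer WT 3 (otherwise adjusted p 0.0598 to 0.118), and Uba7 only when it was Dicer KO 3 (otherwise 0.0507 to 0.121). Uba7 also lost its call after centring within level classes (0.34, adjusted p = 0.0869).

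**Figure D5:**
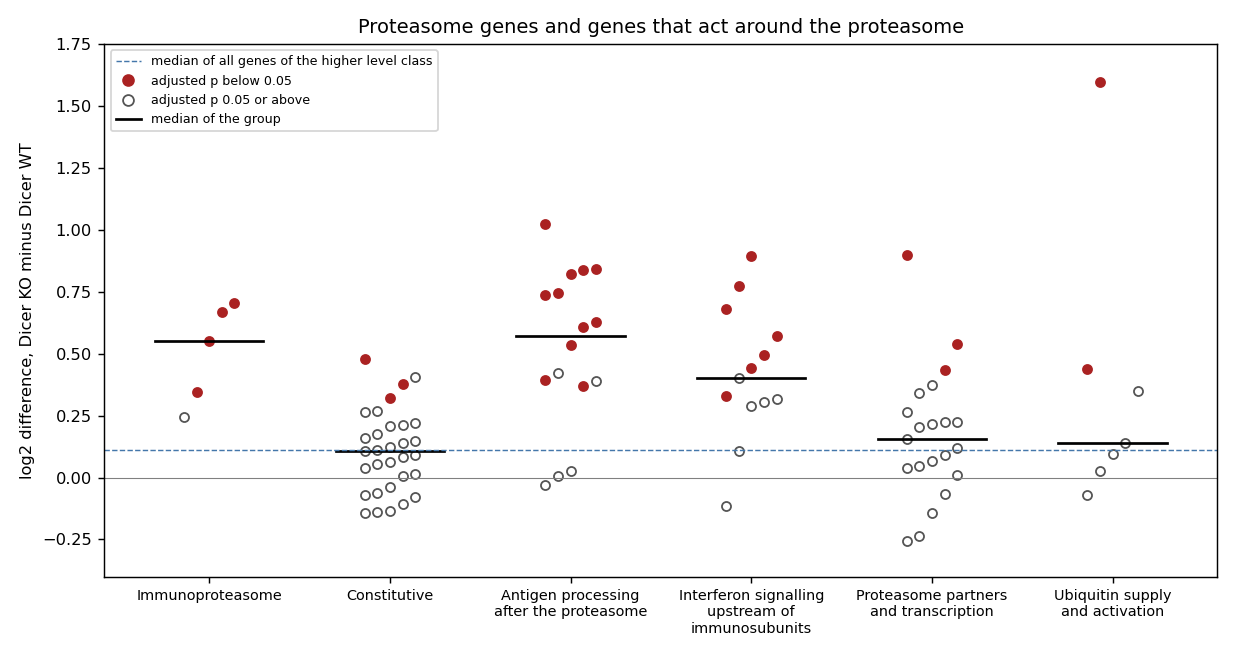
Log2 difference between genotypes, Dicer KO less Dicer WT (y axis) for each measured gene of 6 groups; filled points passed the limma test, black lines are group medians and the dashed line is the median of all genes of the higher level class. Medians are 0.55 for the immunoproteasome, 0.57 for antigen processing and 0.40 for interferon signalling, against 0.11 for the constitutive genes.

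The RNA came from cells sorted as CD4+CD62L-. Selection on CD4 is meant to remove other lymph node cells, many of which also express the immunoproteasome. Whether the genotypes differed in the make-up of the CD4 T cells within this gate was not tested. In bulk RNA more cells of a type and more RNA per cell cannot be told apart. The marker counts below are read against the 5.94% of all genes called higher and the 2.79% called lower. B cell markers had 0 of 9 members called, but all 9 differences were positive (all genes, 45.2%), with a median of 0.29. The median of the list was -0.45, 0.02 and -0.22 in Dicer WT and 0.06, 0.05 and 0.08 in Dicer KO, with the Dicer WT arrays spread widely and Dicer WT 2 just below the Dicer KO arrays. The B cell markers with the lowest p were Ms4a1 (0.68 ± 0.18, limma adjusted p = 0.0717) and Cd79b (0.44 ± 0.13, adjusted p = 0.0813). Without Dicer WT 2, 4 of the 9 were called higher (Ms4a1, Cd79a, Fcrla and Cd79b), with a median of 0.43, and 3 of the 5 immunoproteasome genes were. The part of B cells in the immunoproteasome result was not tested. Myeloid and dendritic markers had 1 of 12 members called, Lyz2 (0.69 ± 0.12, adjusted p = 0.0165, lost without Dicer WT 1 or Dicer KO 2), and a median of -0.03, from -0.03 to 0.03 on the Dicer WT arrays and from -0.0041 to 0.0046 on the Dicer KO arrays. The part of Lyz2-expressing cells in the result was not tested. NK and CD8 markers had 0 of 7 called (Cd8b1 at -0.26 ± 0.07 and Klrd1 at 0.87 ± 0.30, adjusted p 0.0567 and 0.136). Cd8b1 was called lower in the higher level class alone. In that list 1 marker was also called lower with array weights, after centring within level classes and without Dicer KO 1. Called higher was 1 marker with array weights, without Dicer KO 3, and without Dicer WT 3 and Dicer KO 3 together. The part of such cells in the result was not tested. Stromal markers had 1 of 7 called, Pecam1 (0.75 ± 0.07), which T cells express too. Of the 8 T cell markers, Cd4 (0.67 ± 0.07) and Cd2 (0.57 ± 0.06) rose and Cd5 fell (-0.44 ± 0.06), with a median of -0.0029. All 8 were in the higher level class, where 20.6% of genes were called higher and 4.23% lower.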

How the data were processed

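Transcripts were measured on 6 Affymetrix MoGene 1.0 ST arrays, 3 per genotype, per the labels' protocols. The authors deposited 1 table of log2 values of 28815 rows; the log base is not stated and base 2 is assumed for every fold. MAS5 is named in the submitters' processing notes without its role or version. The sources used here do not state the normalization. Row medians are 0 (largest 5e-07), so the table holds no levels. Arrays have no read depth, and their number limits the precision.

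Rows with 1 symbol (21780) were named by GEO's platform annotation, of which 21689 took the symbol of RefSeq (GRCm38.p6) by gene ID; 1605 rows with several symbols and 5430 with none were left out, H2-K1 among the genes lost. Genes were tested with limma 3.58.1 (R 4.3.3, lmFit and eBayes) and Benjamini-Hochberg adjustment over 19935 genes; no low-value filter was possible. A row was of the higher level class where all 6 values were multiples of the binary step of numbers of 8 or more (90.3% of 216 ribosomal protein rows, 1.84% of 1035 olfactory receptor rows); a gene at that level in only 1 genotype falls outside it, so the class is not independent of the difference. The procedure was tested on simulated data. Members, roles and lists were chosen with earlier results of these data known. Named are the immunoproteasome genes, Psmb5 to Psmb7, members past the threshold or with the lowest p of a constitutive role, Psmb11, Psma8, and up to 5 called genes of each list (2 by lowest p where none passed). Alternatives were each array left out, a replicate block, array weights, robust variance, array and level-class centring, the higher class alone, single rows and row medians. Rows of a gene can also bind transcripts of its processed pseudogenes, so single members are uncertain.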

Additional observations from a re-analysis of the deposited data

How the results depend on the processing

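Leaving out 1 array gave 2 to 8 proteasome genes higher and 0 to 0 lower, 1 to 4 immunoproteasome and 1 to 4 constitutive genes higher with 0 of either lower, and 729 to 1597 calls among all genes. The gap between class medians was 0.38 to 0.50, Psmb8 minus Psmb5 0.58 to 0.66, Psmb9 minus Psmb6 0.35 to 0.54 and Psmb10 minus Psmb7 0.46 to 0.63. The immunoproteasome count was 1 (Psme1) without Dicer WT 1. The proteasome count was 2 without Dicer WT 1 and 4 without Dicer KO 2, and the constitutive count was 1 without any of Dicer KO 2, Dicer WT 1 and Dicer WT 3. Arrays centred within level classes gave 4 proteasome genes higher and 1 lower (Psme3) and 1 constitutive gene higher (Psma2). Psmb8 minus Psmb5 was then 0.51. Subtracting array medians gave 8 proteasome genes and 4 constitutive genes higher, with Psmd1 added (limma adjusted p = 0.0463). The higher level class alone gave 5 constitutive genes higher, among them Psmd1 and Psmd12, and 1046 calls over 3289 genes, where fewer genes are adjusted over. Without Dicer WT 1 and Dicer WT 3 together, which leaves a lone Dicer WT array chosen with its values known and assumed to vary like the others, 0 proteasome genes were higher (0 immunoproteasome, 0 constitutive; 213 of all genes) and the gap was 0.58. Without Dicer WT 3 and Dicer KO 3 together, also chosen with results known, 1 proteasome gene was lower, the constitutive Psmd14, and the gap was 0.53. The causes were not tested.

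Deviations from the genotype means correlated over genes at 0.27, -0.08 and 0.30 for same-numbered arrays and at -0.37 to 0.23 for unlike numbers. These values do not settle whether the replicate numbers pair the arrays. With the number as a replicate block, 9 proteasome genes were higher (5 immunoproteasome, 3 constitutive), 0 were lower and 2063 of all genes passed. The block added Psme2 and Psme4 (limma adjusted p 0.044 and 0.0406), and it and array weights each gave 6 proteasome partners higher in place of 3 and 1 B cell marker, Cd79b, in place of 0. With the block, the gap of 0.44 and the pair differences were the same by construction. Over the alternatives, the members named by the rule given above kept their side of the threshold 207 times, lost a call 26 times, gained a call 4 times and reversed 0 times. Psmd1, Psmd14, Psme3 and Psme4 were outside this tally, and their gained calls are given above. A change of sign counted as a reversal only where the main or the alternative fit passed the threshold. Members not called did change sign, as without Dicer WT 3 for Psmb5 (-0.06 to 0.06) and Psmb6 (-0.08 to 0.02). Psmb8 minus Psmb5 has no value in the higher class alone, since Psmb5 is not in it, and array weights gave the pairs a difference but no permutation test.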
